A study of Mus musculus with 2 samples.

Results

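The messenger RNA levels of Trp53, of the MDM genes that hold its protein in check, and of 7 genes that its protein activates were compared between 2 libraries of 4T1 cells. 4T1 is a mouse mammary carcinoma line. The control library came from untreated 4T1 cells, and the other from 4T1 cells that grew in the lower chamber of a transwell for 3 days with macrophages of the M2 (alternatively activated) kind in the upper chamber. No genetic change is given for either group, the RNA was that of the 4T1 cells, and the sources used here do not say whether the control wells held an empty insert. Each group had 1 library, so no value below has a replicate error and no test between the groups can be made.

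The 10 genes are Trp53, Mdm2, Mdm4, Cdkn1a, Ccng1, Zmat3, Sesn1, Plk2, Phlda3 and Aen. They were taken by symbol from 51912 rows with Ensembl identifiers of the deposited table of TPM values, where TPM is a transcript level scaled for transcript length so that genes can be compared. They were proposed with the values of these libraries in view, so their differences are a description. All 10 reached the minimum mean TPM of 1 over both libraries that counts here as detected, as did 11258 rows in all.

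The p53 protein is a transcription factor that is held at a low level by MDM2, a ubiquitin ligase that marks it for destruction, and by MDM4, a relative that binds and silences it. DNA damage and other stresses release p53, which then binds paired decamers near its target genes and raises genes of cell-cycle arrest, repair and cell death. MDM2 is itself a target, which closes a negative feedback loop. In mammary carcinoma loss of p53 is frequent, and 4T1 is commonly described as lacking functional p53. TPM values show neither the sequence nor the protein, so the p53 status of these cells was not tested.

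Paired decamers of the p53 type were sought in promoter windows of RefSeq (GRCm38.p6), which run from 250 bases before to 50 bases after a transcript's start. They are shown first because such sites are what p53 recognises at its targets. Windows existed for 9 of the 10 genes, 13 windows in all, and not for Zmat3. The best match to the p53 full-site consensus, 2 decamers with no spacer and with the C and the G of each core required, had the following sequences where it held at most 3 mismatches. Capitals mark the 4-base core of each decamer, and each is given 5′ to 3′ on the strand of the gene.
Cdkn1a: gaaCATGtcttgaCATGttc
Ccng1: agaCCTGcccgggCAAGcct
Trp53: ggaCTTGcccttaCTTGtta
Sesn1: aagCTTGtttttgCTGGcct
Aen: gggCTTGtccgggCAAGgag

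The Cdkn1a match lay at chr17:29090928-29090947 on the plus strand, with 1 mismatch. It was 51 to 32 bases before the upstream RefSeq start, which is a few bases from the annotated gene start given below. The Ccng1 match lay at chr11:40755462-40755481 on the minus strand, also with 1 mismatch. Among all 32851 windows 0.07% held a match with 1 mismatch or none. The matches of Trp53 (chr11:69580284-69580303, plus strand), Sesn1 (chr10:41887266-41887285, plus strand, at its downstream start) and Aen (chr7:78895937-78895956, plus strand) had 3 mismatches, which 1.38% of windows reached or bettered. The best matches of Plk2 and Phlda3 had 5 mismatches, as 12.42% of windows had or bettered, those of Mdm2 and Mdm4 had 9 and 7 (with no match at the other Mdm4 start), and that at the downstream start of Cdkn1a had 7. At the upstream start of Sesn1 the best match had 8 mismatches, which 52.57% of windows reached or bettered. These promoter windows leave out introns and distal sites, where p53 binds several of its targets, among them the first intron of Mdm2. A match describes letters and not binding.

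Of the 10 genes, 1 was at least 2-fold higher in co-culture and 1 at least 2-fold lower, and they were Cdkn1a and Trp53. Trp53 had 94.23 TPM without and 25.89 TPM with macrophages, a 3.64-fold lower value. Cdkn1a, which encodes the cyclin-dependent kinase inhibitor p21, had 9.26 TPM in 4T1 cells alone against 27.51 TPM in co-culture, a 2.97-fold higher value. The factor gene and the best known of its targets thus differed in opposite directions between these libraries. The share of all detected genes that were at least 2-fold higher was 4.95%, and 2.14% were at least 2-fold lower. Since the genes were proposed with these values known, nothing is read from the count of 1 in each direction. The median log2 ratio was 0.30 over the 10 genes and 0.17 over all detected genes, where the log2 ratio is log2((co-culture TPM + 1)/(control TPM + 1)). The median of the 10 depended on the summary: it was -0.31 over the 6 with a mean of at least 10 TPM, and the mean of the 10 ratios was 0.00.

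**Figure D1:**
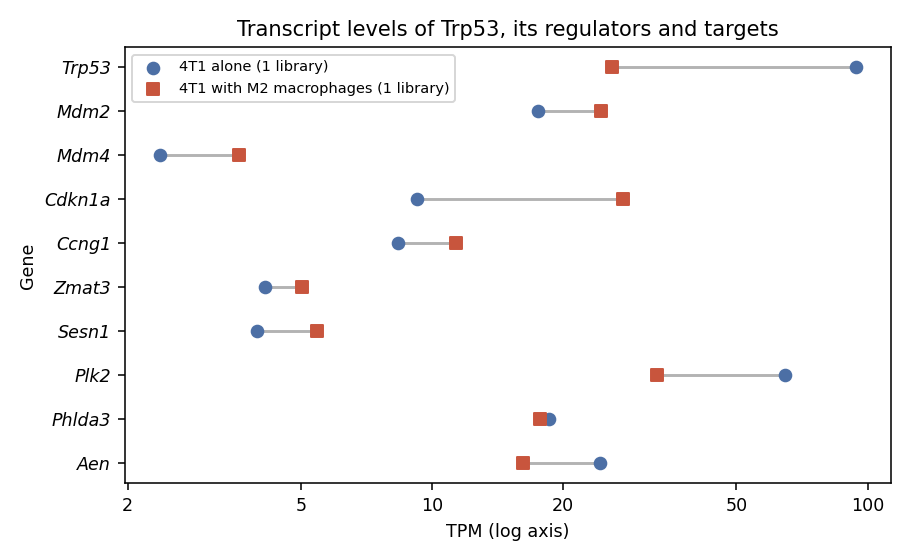
TPM (log axis) of the 10 genes in 4T1 cells alone (circles) and with M2 macrophages (squares), 1 library each, joined by a line per gene. Trp53 moves from 94.23 to 25.89 TPM and Cdkn1a from 9.26 to 27.51 TPM, while Phlda3 stays at 18.58 and 17.72 TPM.

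Trp53 (ENSMUSG00000059552) lies on chromosome 11 of GRCm38 from 69580359 to 69591873 on the plus strand. Its log2 ratio was -1.82, and 0.7% of detected genes had a lower ratio, which placed it 80th from the lowest of 11258. In the control it was the most abundant of the 10 genes and exceeded 89.2% of detected genes. In co-culture it exceeded 64.0% of them and was the third of the 10. No other annotated gene overlaps it, and 103 bases separate it from Wrap53 on the opposite strand, which encodes a telomerase and Cajal body protein and shares its promoter region. Wrap53 had 13.86 TPM in cells grown alone and 12.99 TPM in co-culture. Its ratio on the log2 scale was -0.09, beside the -1.82 of Trp53. The pseudogene Trp53-ps was listed at 0 in both libraries. The p53 relatives Trp63 (0.06 and 0.12 TPM) and Trp73 (0.02 and 0 TPM) were not detected.

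The stretch between Wrap53 and Trp53 is printed because both genes start from it and of the pair only Trp53 was 2-fold different. It runs from 69580256 to 69580358 on chromosome 11 of GRCm38, plus strand, is 103 bases long and ends at the base before Trp53. Capitals mark a p53 half-site, a single decamer of the consensus, and a CCAAT box read on the other strand (ATTGG).
Trp53 upstream: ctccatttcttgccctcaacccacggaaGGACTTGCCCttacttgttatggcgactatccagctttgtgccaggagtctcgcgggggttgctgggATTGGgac
The half-site is the first decamer of the Trp53 match given above. A half-site was found in 8.36% of all windows and in 7 of the 13 windows of these genes. Those 7 windows belonged to 6 genes, namely Trp53, Mdm2, Cdkn1a, Ccng1, Sesn1 and Aen, and Zmat3 had no window to search. The windows of Aen overlap and hold the same half-site, which was counted in each. The genes were picked as Trp53, its regulators and its targets, so nothing is read from their share of half-sites. A CCAAT box on either strand was found in 37.41% of windows. The Trp53 window also held the E-box CACGTG, 7.15% of windows having one, and no TGATGNAA, the composite C/EBP-ATF element that ATF4 and CHOP can bind. That element was in 3.97% of windows and in none of the 13 windows of these genes, searched on both strands. Within the printed stretch the half-site lies inside the full-site match, and no other of these motifs overlapped.

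Mdm2 and Mdm4 were both higher in co-culture, by less than 2-fold. Mdm2 (chromosome 10, 117688875 to 117710758, minus strand) had 17.54 TPM without and 24.39 TPM with macrophages, a 1.39-fold higher value and a log2 ratio of 0.45. Mdm4 (chromosome 1, 132959484 to 133030561, minus strand) had 2.37 TPM in 4T1 cells alone against 3.61 TPM in co-culture, a 1.52-fold higher value and a log2 ratio of 0.45. The equal ratios hold for the pseudocount of 1: they were 0.47 for Mdm2 and 0.59 for Mdm4 with a pseudocount of 0.1, and 0.38 and 0.22 with 5. With the pseudocount of 1, 26.8% and 26.9% of detected genes had higher ratios. Mdm4 was the least abundant of the 10 genes in both libraries. The level of Mdm2 was 7.4 times that of Mdm4 in the control and 6.76 times in co-culture, so their proportion was close in both libraries. The proportion of Trp53 to Mdm2 transcripts was not. It was 5.37 in the control and 1.06 in co-culture. Trp53 stood at 39.8 times the Mdm4 level in the control and 7.17 times in co-culture. Mdm4 has an overlapping pseudogene on the opposite strand, Gm29257, at 0.23 TPM in the control and 0 in co-culture, and a pseudogene elsewhere, Mdm4-ps, at 0 and 0.01 TPM.

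Cdkn1a (ENSMUSG00000023067) lies on chromosome 17 from 29090976 to 29100727 on the plus strand. Its log2 ratio of 1.47 was exceeded by 1.4% of detected genes, which placed it 163rd from the highest. It was the sixth of the 10 genes by level in the control and the second in co-culture, where it slightly exceeded Trp53. The control had 10.2 Trp53 transcripts per Cdkn1a transcript by TPM, and co-culture had 0.941. The annotation places an unclassified transcript, AC167363.2, on the opposite strand within the span of Cdkn1a, and the strandedness of the libraries is not given. That transcript was not analysed here.

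The bases upstream of the first Cdkn1a start are printed because they hold the full-site match with 1 mismatch beside the member with the highest ratio. They run from 29090729 to 29090975 on chromosome 17, plus strand. Capitals mark the p53 full site and, before it, a separate p53 half-site.
Cdkn1a upstream: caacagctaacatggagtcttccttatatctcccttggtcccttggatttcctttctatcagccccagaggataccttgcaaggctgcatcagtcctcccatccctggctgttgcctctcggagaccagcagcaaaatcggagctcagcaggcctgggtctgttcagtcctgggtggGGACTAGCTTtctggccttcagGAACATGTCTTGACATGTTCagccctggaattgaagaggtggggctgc
The table gives 1 value per gene, so the share of Cdkn1a transcripts that begin here or at the downstream start is unknown. The downstream window held GGGCGG, the GC box, 2 times, a motif found in 35.66% of windows on either strand.

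The other 6 targets were all within 2-fold, with 3 higher and 3 lower. Plk2 encodes polo-like kinase 2, a stress-responsive kinase of centriole duplication, and lies on chromosome 13 from 110395046 to 110400844. It had 64.62 TPM in cells grown alone and 32.86 TPM in co-culture, a 1.97-fold lower value with a log2 ratio of -0.95. It was the nearest of the 10 to the 2-fold threshold and passed it, at -1.07 and -1.17, when the co-culture values were scaled by the median ratio of abundant genes or by a TMM factor. Plk2 was the second most abundant gene of the set in the control and the first in co-culture. Its promoter window was the only one of the 13 with TGACGTCA, the cyclic AMP response element, which 1.79% of windows held. Aen, an exonuclease gene that p53 induces in cell death (chromosome 7, 78895854 to 78911209), had 24.29 TPM without and 16.19 TPM with macrophages, a 1.5-fold lower value, and 6.9% of detected genes had lower ratios. Phlda3 (chromosome 1, 135766119 to 135769136), whose product restrains AKT at the membrane, had 18.58 TPM and 17.72 TPM and thus differed 1.05-fold.

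Ccng1, Sesn1 and Zmat3 had slightly higher values in co-culture. Ccng1 encodes cyclin G1, which recruits a phosphatase to MDM2. Its position is chromosome 11, 40748552 to 40755311. It had 8.37 TPM in 4T1 cells alone against 11.38 TPM in co-culture (log2 ratio 0.40). Sesn1, the gene of sestrin 1, an inhibitor of mTORC1 signalling (chromosome 10, 41809935 to 41908424), had 3.97 TPM and 5.44 TPM (0.37). Zmat3, the gene of an RNA-binding zinc finger protein that acts on splicing (chromosome 3, 32334792 to 32366014), had 4.14 TPM and 5.03 TPM (0.23). Of all detected genes 64.5% had higher and 35.4% lower values in co-culture, against 6 and 4 of the 10 genes here. Of the same genes 30.7%, 32.8% and 44.2% had higher ratios than Ccng1, Sesn1 and Zmat3. These 3 genes, with Mdm2 and Mdm4, therefore lay in the broad upper middle of the distribution. Within the 300-base promoter windows, which exist for 9 of the 10 genes and not for Zmat3, Cdkn1a and Ccng1 had the closest matches to the p53 site, and their ratios were 1.47 and 0.40.

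**Figure D2:**
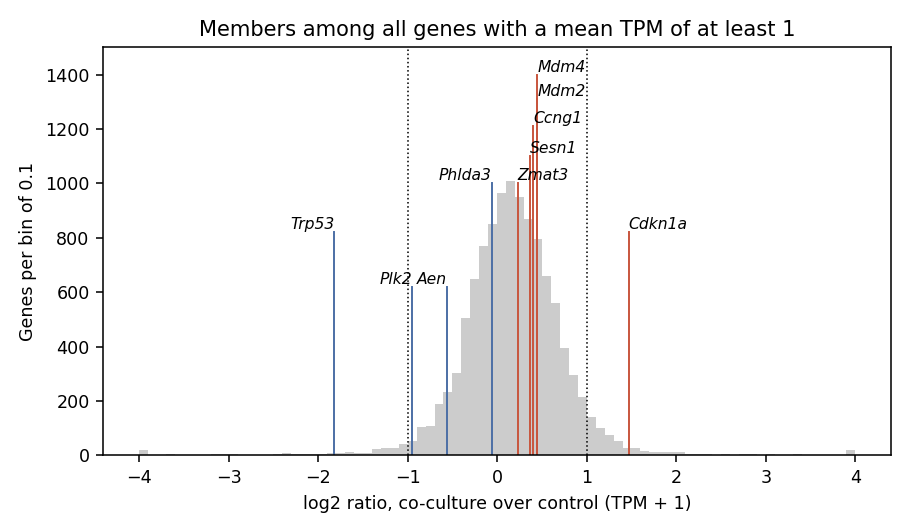
Histogram of log2 ratios (co-culture over control, pseudocount 1) of the 11258 detected genes in bins of 0.1, with ratios beyond the axis range put in the end bins. Vertical lines mark the 10 genes at arbitrary heights, and dotted lines mark 2-fold. Trp53 at -1.82 and Cdkn1a at 1.47 lie outside the dotted lines, and Plk2 at -0.95 lies just inside.

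The 10 genes kept their signs under every one of 5 other settings, 2 other pseudocounts and 3 other scalings. Trp53 ranged from -2.03 to -1.68 and Cdkn1a from 1.19 to 1.56. The smallest values were those of Zmat3, from 0.05 to 0.27, and Phlda3, from -0.27 to -0.05. The scalings moved the median of all genes from 0.17 to 0.06 with the median ratio and to -0.03 with the TMM factor, so small ratios above 0 are read against that shift.

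**Figure D3:**
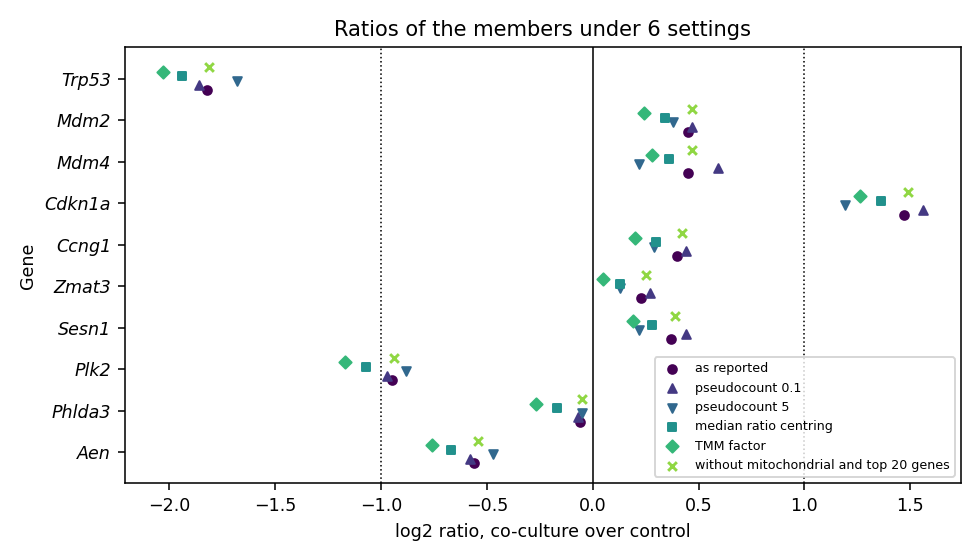
The log2 ratio of each of the 10 genes under 6 settings (as reported, pseudocounts of 0.1 and 5, and 3 scalings), with dotted lines at 2-fold. The points of Trp53 (-2.03 to -1.68) and Cdkn1a (1.19 to 1.56) stay beyond 2-fold, and those of Plk2 (-1.17 to -0.88) lie on both sides of it.

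Relatives of the 7 targets often differed from them. Ccng2, the cyclin G2 gene, had 7.82 TPM in cells grown alone and 39.17 TPM in co-culture, a 5.01-fold higher value, against 1.36-fold for Ccng1. The control levels of both cyclin G genes were alike, and the co-culture levels were not. Sesn2, the sestrin 2 gene and a target of ATF4 as well as p53, had 12.7 TPM without and 4.27 TPM with macrophages, 2.97-fold lower, while Sesn1 was 1.37-fold higher. With a pseudocount of 5 the log2 ratio of Sesn2 was -0.93. Sesn3 had 1.91 and 2.11 TPM. Among polo-like kinases, Plk3, the other stress-responsive member, had 30.51 TPM and 16.46 TPM (log2 ratio -0.85), close to Plk2. The mitotic Plk1 had 46.35 TPM and 95.69 TPM (1.03), and the centriole kinase Plk4 had 15.55 TPM and 31.44 TPM (0.97). The ratio of Plk1 was 0.81 with the TMM factor, below 2-fold.

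Of 7 CDK inhibitor genes 4 were detected, and all 4 had higher values in co-culture, as had 64.5% of all detected genes. Cdkn1b, which encodes p27, had 19.53 TPM in 4T1 cells alone against 31.45 TPM in co-culture (log2 ratio 0.66). Cdkn2d (p19 INK4d) had 20.82 TPM and 53.11 TPM (1.31), the only other one at least 2-fold higher besides Cdkn1a, and Cdkn2c (p18 INK4c) had 56.28 TPM and 75.17 TPM (0.41). Cdkn2a, which encodes INK4a and the MDM2 inhibitor ARF, had 0.07 TPM and 0 TPM, Cdkn2b was listed at 0 in both, and Cdkn1c had 0 and 0.08 TPM. Of the remaining paralogs, Phlda1 and Phlda2 had ratios of 0.15 and 0.48 beside -0.06 for Phlda3, and Isg20 and Isg20l2 had -0.23 and 0.16 beside -0.56 for Aen. The ratios of Phlda1, Isg20l2 and Sesn3 were below 0 with the TMM factor. Zmat4 and Plk5 were listed at 0 in both libraries.

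**Figure D4:**
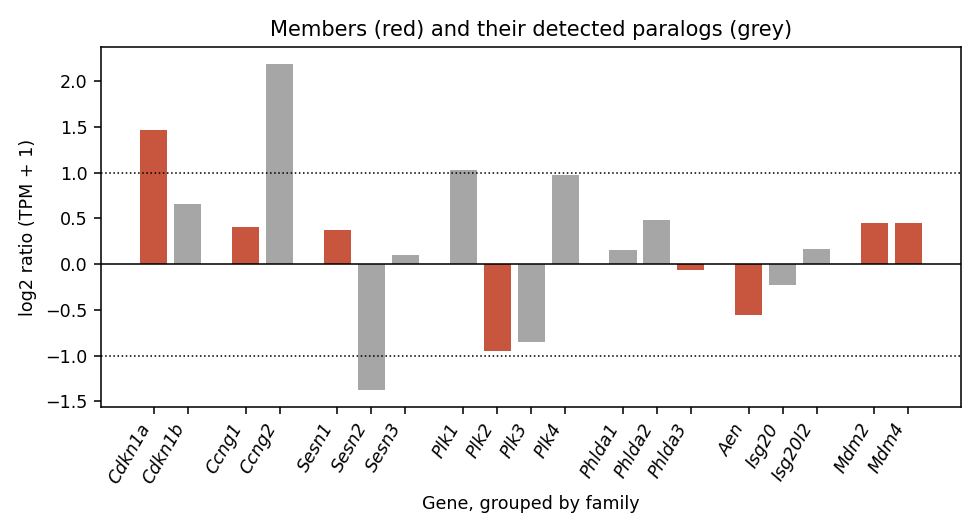
Bars of the log2 ratio (co-culture over control, pseudocount 1) for the members with detected paralogs (red) and those paralogs (grey), grouped by family, with dotted lines at 2-fold. Ccng2 (2.19) exceeds Ccng1 (0.40), and Sesn2 (-1.38) lies opposite to Sesn1 (0.37).

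Genes that act on p53 differed less than Trp53 itself. In the list of ubiquitin ligases, deubiquitinases and the phosphatase of the pathway all 13 genes were detected, 10 had higher values (9 with the TMM factor) and none was 2-fold different in either direction. Among all detected genes 64.5% were higher, 4.95% at least 2-fold higher and 2.14% at least 2-fold lower, so these counts are near the background. The median was 0.28, against 0.17 over all detected genes, and 0.06 against -0.03 with the TMM factor. Of the other ligases that target p53, Rchy1 (Pirh2) had 32.24 TPM in cells grown alone and 20.48 TPM in co-culture (log2 ratio -0.63), Cop1 had 21.98 and 26.75 TPM (0.27), and Trim24 had 6.83 and 10.84 TPM (0.60). Usp7, the deubiquitinase of p53 and MDM2, had 32.5 and 49.79 TPM (0.60). Ppm1d, the WIP1 phosphatase that switches p53 signalling off, had 4.74 and 7.18 TPM (0.51), and the ligase gene Rfwd3 had 22.34 and 35.41 TPM (0.64). The ratios of Huwe1, Otud5 and Usp10 were 0.28, 0.23 and 0.05, and those of Trim28 and Stub1 were -0.20 and -0.27. The ratio of Usp10 was below 0 with the TMM factor.

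Among 15 kinases and damage-signalling genes, all of them detected, 11 had higher values (8 with the TMM factor) and 1 was at least 2-fold higher. These counts are near the 64.5% and 4.95% of all detected genes, and the median of 0.14 was below the 0.17 of all detected genes. The gene past 2-fold was Chek2, the checkpoint kinase that phosphorylates p53, with 7.01 TPM without and 15.3 TPM with macrophages (log2 ratio 1.02). It was within 2-fold with the median ratio (0.92), the TMM factor (0.82) and a pseudocount of 5 (0.76). The damage mediator Mdc1 had 5.79 and 12.47 TPM (0.99), the checkpoint kinase Chek1 13.64 and 22.08 TPM (0.66), and the stress kinase Mapk14 26.74 and 43.26 TPM (0.67). The ratios of Rad50, of the MRN complex, and Trp53bp1 were 0.50 and 0.47. Atm, the main damage kinase upstream of p53, had 1.46 and 1.71 TPM.

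Of 14 p53 cofactors all were detected and 10 had higher values (7 with the TMM factor), near the 64.5% of all detected genes. Their median was 0.30, and 0.10 with the TMM factor, against 0.17 and -0.03 over all detected genes. The one at least 2-fold higher, beside 4.95% of all detected genes, was Ppp1r13l, which encodes iASPP, an inhibitor of p53, with 8.16 TPM in 4T1 cells alone against 22.7 TPM in co-culture (log2 ratio 1.37). Kat2b, an acetyltransferase gene, had 3.3 and 6.89 TPM (0.88), and Pml, which gathers p53 in nuclear bodies, had 9.47 and 17.94 TPM (0.86). The ratios of Ing1, Ep300 and Hdac1 were 0.55, 0.50 and 0.49. Nucleolar and ribosomal binders of MDM2 had small differences, with 7 of 8 detected genes lower, beside 35.4% of all detected genes, and ratios from -0.28 (Gnl3) to 0.06 (Npm1, below 0 with the TMM factor). Rpl11 had 1776 TPM in cells grown alone and 1543 TPM in co-culture.

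The wider set of p53 targets, 71 genes with 7 of the 10 members and Mdm2 among them, divided between higher and lower much as all detected genes did. Of 59 detected genes 39 had higher and 20 lower values, beside 64.5% and 35.4% of all detected genes. The number at least 2-fold higher was 5 and the number at least 2-fold lower 3, beside 4.95% and 2.14%. The median was 0.23 against 0.17 over all detected genes. With the TMM factor 31 were higher and 28 lower, and the median was 0.02 against -0.03. By at least 2-fold 3 were then higher and 6 lower, beside 2.85% and 3.37% of all detected genes. Many of these genes were defined as targets in other cells, mostly human ones.

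Of the cell death targets 9 of 13 were detected, 5 with higher and 4 with lower values (3 and 6 with the TMM factor). By at least 2-fold 1 was higher and 1 lower, beside 4.95% and 2.14% of all detected genes. Bbc3, which encodes the BH3-only killer PUMA, had 23.25 TPM without and 8.26 TPM with macrophages, and Apaf1, the scaffold of the apoptosome, had 2.2 and 5.56 TPM (log2 ratio 1.04, and 0.85 with the TMM factor). Pidd1 had 1.45 and 3.88 TPM (0.99). Bax had 172.45 and 138.55 TPM, and the death receptor gene Fas 5.99 and 4.36 TPM. Perp and Pmaip1 (NOXA) were listed at 0 in both libraries. The median was 0.06, and -0.16 with the TMM factor.

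Of the 12 targets of arrest and growth control 11 were detected. Gadd45a, a stress sensor of the p38 and checkpoint pathways, had the lowest ratio of all the targets, with 65.61 TPM in 4T1 cells alone against 8.92 TPM in co-culture, 7.36-fold lower. In this group Gadd45a and Cdkn1a, both textbook arrest genes, stood at opposite ends, with log2 ratios of -2.75 and 1.47. Gtse1, a negative regulator of p53 in G2, had 11.12 and 18.41 TPM (0.68), and the antiproliferative Btg2 had 0.94 and 1.77 TPM (0.51). Sfn (14-3-3 sigma) was not detected, at 0.28 and 0.44 TPM.

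In DNA repair and nucleotide supply 6 of 7 detected targets had higher values, beside 64.5% of all detected genes. Polh, the translesion polymerase eta gene, had 9.76 TPM in cells grown alone and 23.61 TPM in co-culture (log2 ratio 1.19, and 0.98 with the TMM factor). Pcna, the replication clamp that p21 binds, had 204.52 and 311.62 TPM (0.61). The ratios of Polk, Ddb2, Rrm2b and Ercc5 lay between 0.54 and 0.20. Among 11 targets of metabolism and redox, all detected, Sesn2 was the only one 2-fold different. It was lower, and 2.14% of all detected genes were at least 2-fold lower. Tigar, which lowers glycolytic flux, had 7.77 and 3.92 TPM (-0.83), and Fdxr had 16.23 and 12.25 TPM (-0.38). Of secreted or membrane targets 6 of 9 were detected and all 6 had higher values, 2 of them by at least 2-fold, beside 64.5% and 4.95% of all detected genes. Lif, the leukaemia inhibitory factor gene, had 6.87 TPM without and 25.75 TPM with macrophages (1.77), and Thbs1 (thrombospondin 1) had a ratio of 1.5. The ratios of Kitl, Epha2 and Cd82 were 0.41, 0.30 and 0.24. Gdf15, a sensitive p53 and stress target elsewhere, had 0.04 TPM and 0 TPM. In the group of other targets 9 of 12 were detected and none was 2-fold different. Among all detected genes 4.95% were at least 2-fold higher and 2.14% at least 2-fold lower, so nothing is read from that. Tap1 (0.44) and Ptp4a1 (-0.30) had the widest ratios of that group. Among 8 targets listed for feedback on p53, some of them also in the groups above, 7 were detected. Of these 6 had higher values, beside 64.5% of all detected genes. None was 2-fold different, beside the same 4.95% and 2.14%, and their ratios ran from -0.63 (Rchy1) to 0.86 (Pml).

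**Figure D5:**
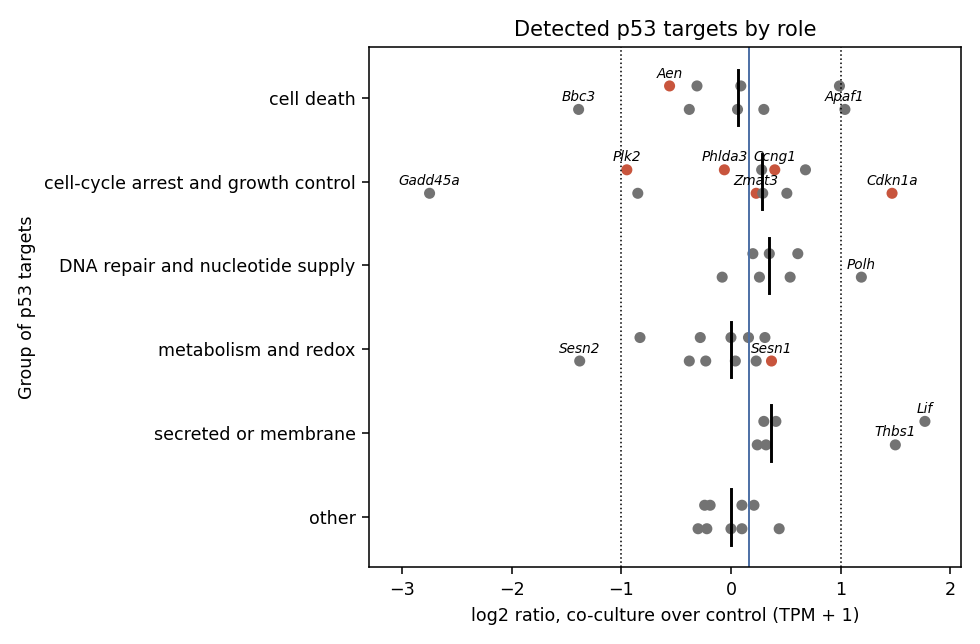
Points are the log2 ratios (co-culture over control, pseudocount 1) of detected p53 targets in 6 groups by role. Targets listed only for feedback on p53, the member Mdm2 among them, are not drawn. Members of the set of 10 are in red and group medians are black bars. The median of all detected genes (0.17) is a blue line, and dotted lines mark 2-fold. Cdkn1a, Lif, Thbs1, Polh and Apaf1 lie right of 1, and Gadd45a, Bbc3 and Sesn2 lie left of -1.

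The 3 targets at least 2-fold lower, Gadd45a, Bbc3 and Sesn2, all belonged to a list of 8 targets that ATF4 or CHOP also activate. Of that list 5 were detected, and the others were Ddit4 (35.32 and 41.56 TPM) and Tnfrsf10b (23.19 and 24.82 TPM, a ratio below 0 with the TMM factor). Of the 54 detected targets outside the list none was at least 2-fold lower, beside 2.14% of all detected genes. In the same 54 targets 5 were at least 2-fold higher, beside 4.95% of all detected genes. With the TMM factor 3 of them were at least 2-fold lower, namely Plk2, Plk3 and Tigar, beside 3.37% of all detected genes. The list was drawn up with the values of these libraries known, so the count is a description.

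Genes that p21 represses through RB-like proteins and the DREAM complex had higher values in co-culture, as did Cdkn1a. All 28 listed cell-cycle genes were detected and higher (26 with the TMM factor), and 11 were at least 2-fold higher, beside 64.5% and 4.95% of all detected genes. Their median log2 ratio was 0.88 against 0.17 over all detected genes, and 0.66 against -0.03 with the TMM factor. The number at least 2-fold higher was 5 with a pseudocount of 5, 4 with the median ratio and 2 with the TMM factor. Cenpf, a kinetochore gene, had the highest ratio, with 2.69 TPM in 4T1 cells alone against 8.78 TPM in co-culture (1.41). Ccna2, the cyclin A2 gene, had 61.89 and 147.39 TPM (1.24), and Kif2c, a mitotic depolymerase gene, 19.65 and 46.43 TPM (1.2). Mcm5, a gene of the replicative helicase, had a ratio of 0.16.

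Likeness to a member can be read over 2 libraries only as nearness of the log2 ratio. Among 141 detected genes of these lists Thbs1 (1.5), Cenpf (1.41) and Ppp1r13l (1.37) were nearest to Cdkn1a. For Trp53 the nearest were Bbc3 (-1.39), Sesn2 (-1.38) and Plk2 (-0.95), and the nearest of these was 0.44 away.

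Markers of other cells were read beside these values. Of 20 macrophage markers 18 were not detected and 13 were listed at 0 in both libraries, among them Adgre1, Tyrobp and Ptprc. The 2 detected were Cd68 (57.7 and 27.81 TPM) and Cd14 (8.87 and 12.36 TPM), and the summed level of the list was 66.7 TPM in cells grown alone and 40.6 TPM in co-culture. Of 8 fibroblast markers only Pdgfra was detected, with 5.6 TPM without and 10.16 TPM with macrophages, 1.81-fold higher. Of 10 epithelial markers 7 were detected and all 7 had higher values in co-culture, beside 64.5% of all detected genes. Their median log2 ratio was 0.72, against 0.17 over all detected genes. The abundant keratin genes Krt8 (548.48 and 630.42 TPM) and Krt18 (439.45 and 484.16 TPM) had ratios of 0.20 and 0.14. The TMM factor lowers the log2 ratios of abundant genes by 0.22, which is more than either value. Krt19 went from 0.18 to 2.64 TPM (1.63), and by TPM Cd24a was 2.09-fold, Itga6 1.83-fold and Cldn3 1.73-fold higher. Epcam was listed at 0 in both libraries, and Cdh1 had 0.04 and 0.01 TPM. The part of these marker differences in the results above was not tested. In bulk RNA fewer cells with a transcript and less transcript per cell cannot be told apart. The library with the higher cell-cycle values is also the one with the lower Trp53 value, and the part of cell-cycle stage in any of these differences was not tested.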

How the data were processed

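RNA of 2 libraries of 4T1 cells was compared, 1 control and 1 co-culture. The authors deposited TPM values rounded to 2 decimals, 1 column per library. HISAT2 2.1.0, RSEM 1.2.31 and GRCm38.p5 are named in the submitters' processing notes, without roles. The sources used here do not give the annotation release, the strandedness or any filter. TPM keeps no depth, so the depth is unknown and no counting intervals were computed. RSEM shares reads among similar genes, so paralogs and pseudogenes are uncertain. The co-culture library's title reads 4T2, and its treatment label, 4T1, was followed.

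Of 52796 rows, 884 assembled loci were left out and 51912 carried Ensembl identifiers, 51633 of them with a GENCODE M21 symbol. Positions are 1-based on GRCm38. Ratios, counts and medians were computed in Python 3.11.15 with pandas 2.3.3. Only the 2-fold rule and the scaling factors were tested on simulated data, in which low levels were raised to a floor. Detected means a mean TPM of at least 1, and 2-fold a log2 ratio of 1 or -1 with a pseudocount of 1. With 1 library per group there are no tests or p-values.

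The members, the 16 lists and the motifs were chosen with earlier results of these data known. Named were the members, detected paralogs, CDK inhibitors and MDM-type regulators, and up to 6 genes per other list with the largest absolute ratios. Others (Atm, Sfn, Gdf15, Rpl11, Npm1, the lowest cell-cycle genes, undetected genes) were added after their values were seen. The scan for p53 sites was planned over longer genome windows and was run on 300-base promoter windows instead. Alternatives were pseudocounts of 0.1 and 5, no minimum, a minimum of 10, a 1.5-fold threshold, the mean, and scaling by the median ratio, by an unweighted TMM factor (trims of 30% and 5%) or without mitochondrial and the 20 most abundant genes. Some listed genes are counted within their lists and not reported here by name.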

Additional observations from a re-analysis of the deposited data

How the results depend on the processing

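Trp53 stayed at least 2-fold lower and Cdkn1a at least 2-fold higher under every alternative tried. The count of the 10 genes at least 2-fold lower was 2, Trp53 and Plk2, with the median ratio, the TMM factor and the 1.5-fold threshold. Their median log2 ratio was -0.31 with a minimum mean TPM of 10, which kept 6 of them. Of all p53 targets the number 2-fold higher was 3 with a pseudocount of 5 and with the TMM factor, the number 2-fold lower was 6 with the TMM factor, and at 1.5-fold they were 10 and 7. Over all detected genes 557 were 2-fold higher and 241 lower, 321 and 379 with the TMM factor, 406 and 293 with the median ratio, 199 and 129 with a pseudocount of 5, 2099 and 717 at 1.5-fold, 886 higher with a pseudocount of 0.1, and 244 and 120 with a minimum of 10. Higher genes made up 69.8% of those past 2-fold, 58.1% with the median ratio and 45.9% with the TMM factor. The median of the cell death targets was -0.06 with the median ratio, -0.16 with the TMM factor and -0.13 with a minimum of 10, and their mean was -0.02. For arrest targets the median was -0.46 with a minimum of 10 and the mean -0.07, for paralogs of the members the median was -0.05 with the TMM factor, and for the 7 member targets it was -0.31 with a minimum of 10. Apart from the settings that keep fewer genes, the cause was not tested. No paired analysis was possible because each group had 1 library. The planned wider windows for p53 sites were not run, and no replicate could be left out.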
